A study of Mus musculus with 22 samples.

Results

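The genes described here are 6 sarcomere genes whose isoforms are exchanged in the heart during development and under load: the myosin heavy chains Myh6, Myh7 and Myh7b, the actins Acta1 and Actc1, and the slow troponin I Tnni1. They were chosen by name, and all 6 of them were found among the 30735 genes of each of the 2 deposited tables. Their transcript levels in TPM, the length-corrected share of a library's transcripts that a gene takes, and the ratios Myh7/Myh6 and Acta1/Actc1 were followed over 22 left ventricular libraries of FVB mice, labelled 3 to 5 months of age. The mice carried a transgene of valosin-containing protein (VCP TG) or were wild type (WT), and had transverse aortic constriction (TAC), which loads the left ventricle with pressure, or a sham operation. There were 3 VCP TG and 4 WT libraries at 2 weeks of TAC, 4 VCP TG and 4 WT sham libraries collected at 2 weeks, and 3 VCP TG and 4 WT libraries at 5 weeks of TAC, with no 5-week sham analysed here. The comparisons ask what pressure load does to these genes in each genotype, and whether the transgene alters it. The promoter that drives the transgene, the number of transgenic lines, and whether a library came from 1 animal are not given in the sources used here, so each p-value refers to spread among libraries, part of which may be technical.

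Myosin heavy chain is the motor of the thick filament, and its isoform sets how fast the filaments slide. The adult mouse ventricle makes mostly the fast alpha chain, encoded by Myh6, while the slow beta chain, encoded by Myh7, predominates before birth. Thyroid hormone is known to activate Myh6 and to repress Myh7, and in rodents pressure overload is known for raised Myh7 and Acta1, part of what is called the fetal gene programme. Actc1 encodes the cardiac alpha-actin of the thin filament, and Acta1 the skeletal alpha-actin, which the heart also makes before birth. Tnni1 encodes the slow skeletal troponin I, an inhibitory subunit on the thin filament that the cardiac form, Tnni3, replaces after birth. Myh7b encodes a further slow-type myosin heavy chain.

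On GRCm38, in the GENCODE M21 annotation, Myh6 (ENSMUSG00000040752) lies at chr14:54941921-54966927 and Myh7 (ENSMUSG00000053093) at chr14:54970684-54994626, both on the minus strand, with 3756 bases between them. Myh7b (ENSMUSG00000074652) lies at chr2:155611212-155634307 on the plus strand. Actc1 (ENSMUSG00000068614) lies at chr2:114047282-114053548 and Acta1 (ENSMUSG00000031972) at chr8:123891769-123894751, both on the minus strand. Tnni1 (ENSMUSG00000026418) lies at chr1:135779434-135810989 on the plus strand. Each of the 3 myosin genes carries a microRNA in an intron, on its own strand and within an intron of every coding transcript that spans it. These microRNAs, called myomiRs, are known to feed back on the balance of fast and slow myosin in mice. Their mature RefSeq sequences (GRCm38.p6), with the seed (bases 2 to 8) in capitals, are shown because they link the 3 genes:
mmu-miR-208a-3p (in Myh6): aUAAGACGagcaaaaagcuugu
mmu-miR-208b-3p (in Myh7): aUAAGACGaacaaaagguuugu
mmu-miR-499-5p (in Myh7b): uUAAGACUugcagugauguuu
The forms in Myh6 and Myh7 share the seed UAAGACG and differ at 3 bases in all, and the seed of the form in Myh7b, UAAGACU, differs from it in its last base. The microRNAs themselves and Mhrt, a noncoding RNA on the opposite strand that overlaps Myh7, were not analysed here.

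The promoter windows of the 3 myosin genes (250 bases before to 50 after the start, RefSeq, GRCm38.p6, each on its gene's strand) are shown because these 3 genes had lower values together in WT hearts under TAC. Of the 4 motifs searched on both strands, those found are in capitals: MCAT (CATTCC, or GGAATG on the other strand), the TATA box (TATAAA) and a thyroid hormone receptor half-site (AGGTCA, or TGACCT on the other strand). The fourth was the CArG box, the binding site of serum response factor.
Myh6, chr14:54966558-54966857: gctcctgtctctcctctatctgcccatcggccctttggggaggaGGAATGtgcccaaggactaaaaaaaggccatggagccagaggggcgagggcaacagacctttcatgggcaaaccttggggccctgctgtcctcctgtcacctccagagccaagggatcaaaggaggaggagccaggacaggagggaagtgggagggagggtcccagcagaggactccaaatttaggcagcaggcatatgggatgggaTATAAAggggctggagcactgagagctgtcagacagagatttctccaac
Myh7, chr14:54994577-54994876: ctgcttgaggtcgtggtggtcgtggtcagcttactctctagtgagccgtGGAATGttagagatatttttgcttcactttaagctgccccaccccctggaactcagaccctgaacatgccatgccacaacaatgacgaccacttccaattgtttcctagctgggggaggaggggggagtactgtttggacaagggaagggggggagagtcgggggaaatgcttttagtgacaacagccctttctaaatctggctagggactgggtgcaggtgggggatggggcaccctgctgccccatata
Myh7b, chr2:155610993-155611292: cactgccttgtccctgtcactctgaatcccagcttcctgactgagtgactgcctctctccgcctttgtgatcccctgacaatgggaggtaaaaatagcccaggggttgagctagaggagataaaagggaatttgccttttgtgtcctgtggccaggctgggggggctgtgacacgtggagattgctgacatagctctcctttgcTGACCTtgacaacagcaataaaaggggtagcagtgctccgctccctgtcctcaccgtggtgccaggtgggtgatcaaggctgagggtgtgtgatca
Myh6 and the upper of the 2 RefSeq windows of Myh7 each held an MCAT motif, at positions -206 and -201, counted from the annotated start of transcription. The other window of Myh7, not shown, held none of the 4 motifs. Myh7b held no MCAT motif and had a half-site at position -46. MCAT was present in 14.7% of 32851 promoter windows, the TATA box in 13.6% and the half-site in 16.3%. A CArG box was present in 1.63% of windows, among them those of Acta1 and Actc1, at positions -73 and -47, and in none of the myosin windows. No motif occurred in all 3 myosin windows, and the motifs do not overlap each other in them.

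Each of the 7 markers of ventricular myocytes stood at 1 TPM or more in every library, and their sum lay between 12091.7 and 24004.8 TPM. Mitochondrially encoded genes took 27.9% to 72.9% of TPM. The highest share was that of VCP TG sham replicate 4, in which nuclear genes together therefore take a smaller share. The atrial light chain Myl7 exceeded 300 TPM in 4 libraries, called atrial-rich below: replicate 2 of VCP TG 2 weeks TAC, replicate 1 of those labelled WT 2 weeks TAC, and replicates 3 and 4 of VCP TG sham. Vcp, rescaled to named nuclear protein-coding genes, split the libraries at the widest gap, 234 against 365 TPM. By that split 5 libraries lay with the other genotype: those labelled VCP TG sham replicate 1, WT 2 weeks TAC replicate 1, VCP TG 5 weeks TAC replicate 3, and WT 5 weeks TAC replicates 2 and 3. Rescaled Vcp was 176 to 553 TPM in libraries labelled VCP TG and 160.2 to 429.9 TPM in those labelled WT. Directions between genotypes below follow the labels. In whole-tissue RNA, fewer cells of a type and less RNA per cell cannot be told apart.

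Averaged over all libraries, Myh6 was the most abundant of the 6 genes in TPM, a scale that accounts for transcript length, with a mean of 4865 TPM and rank 20 among all genes. Actc1 followed at 4145 TPM, then Acta1 at 447 TPM, Myh7 at 302 TPM and Myh7b at 49.4 TPM. Tnni1 averaged 1.12 TPM, rank 13285, while Tnni3 lay between 2671 and 5207 TPM. Transcripts of Myh6 and Myh7 share 31.7% and 30.6% of their 31-base words with other myosin heavy chains, nearly all with each other, so the division of reads between them is uncertain where reads fall in shared stretches. The shared fraction was 0.179% for Myh7b, 3.72% for Acta1 and 0.756% for Actc1, and no word of Tnni1 was shared with another troponin I gene. With the 6 groups ordered by mean, each pair of neighbouring groups overlapped for each of the 6 genes. The 3 myosins had their highest mean in WT sham hearts, Acta1 in WT hearts at 5 weeks of TAC, Actc1 in WT hearts at 2 weeks of TAC, and Tnni1 in VCP TG hearts at 2 weeks of TAC.

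**Figure D1:**
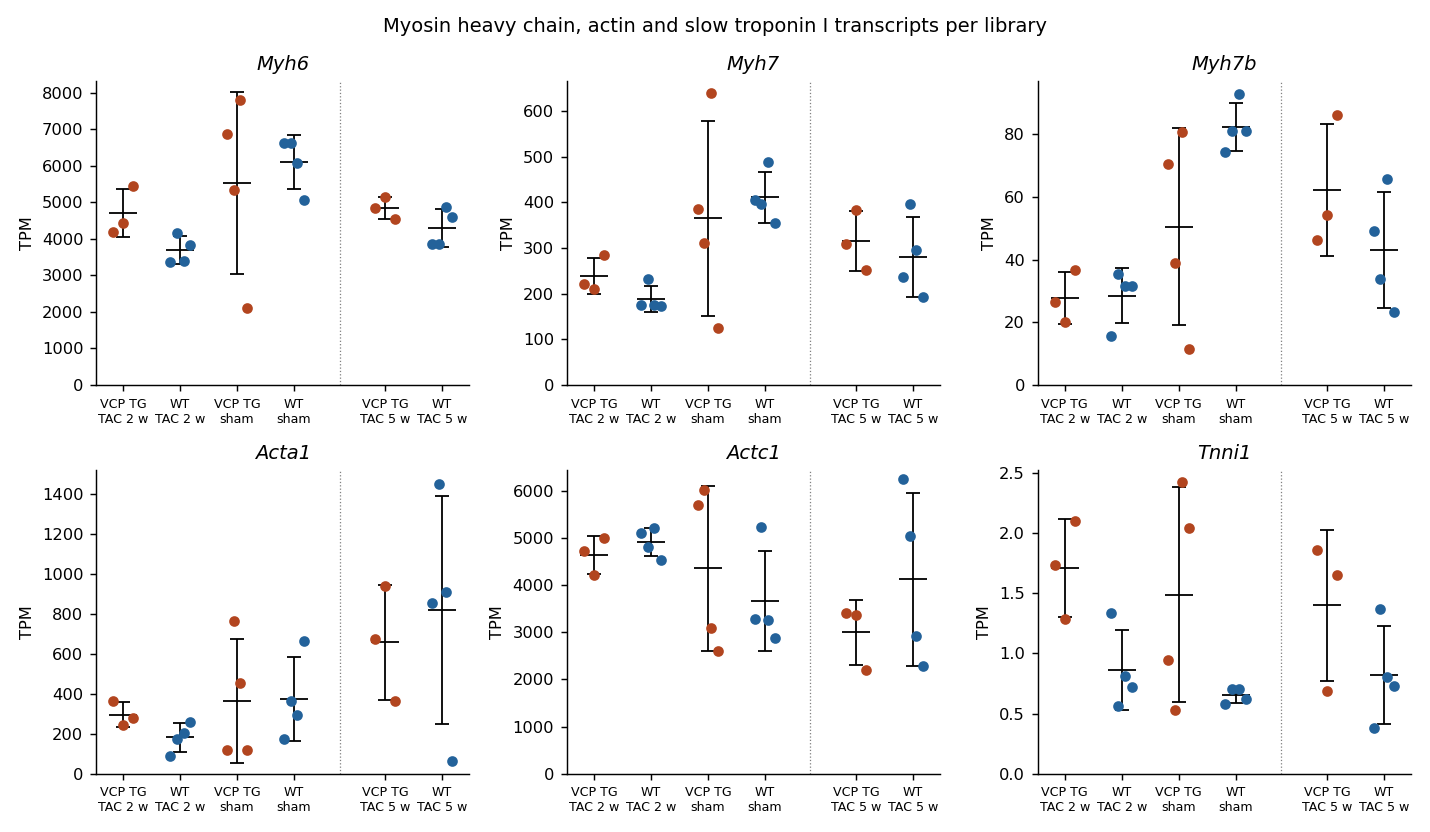
TPM of the 6 genes in each of the 22 libraries (points), with the mean and SD of each group (bars); VCP TG groups are rust-coloured and WT groups blue, and the dotted line divides the 2 tables. In the WT groups of the 2-week table, the 3 myosins are lower in all 4 TAC libraries than in all 4 sham libraries, while VCP TG sham spreads widely, with replicate 4 lowest for the myosins.

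In WT hearts, all 3 myosin heavy chain genes had lower values after 2 weeks of TAC than after sham, without overlap of the groups. Myh6 stood at 3374, 4158, 3389.6 and 3826 TPM in WT TAC libraries, against 6629, 6613, 6087 and 5063 TPM in WT sham libraries. Myh7 stood at 174, 232, 174 and 173 TPM under TAC, against 404, 396, 489 and 356 TPM in sham. Myh7b stood at 15.5, 35.2, 31.7 and 31.7 TPM under TAC, against 74.3, 80.8, 92.8 and 80.9 TPM in sham. For each of the 3 genes the highest TAC library lay below the lowest sham library, as was the case for 13.7% of the 15540 genes tested. The summed level of Myh6 and Myh7, which depends little on how shared reads were divided, was also lower without overlap, at 3548, 4390.0, 3564 and 3999 TPM under TAC, against 7033, 7009, 6576 and 5419 TPM in sham.

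The log2 fold changes, TAC over sham, were -0.72 ± 0.31 (adjusted p = 0.399) for Myh6, -1.12 ± 0.34 (adjusted p = 0.327) for Myh7 and -1.55 ± 0.44 (adjusted p = 0.323) for Myh7b, with standard errors and limma p-values adjusted over all genes, from the fit of all 4 groups. None of the 6 genes passed the threshold of 0.05 there, and neither did any other gene: limma called 0 of 15540 genes (0.0%), although 1773 had an unadjusted p under 0.05. The call depended on the fit. In a fit of the 8 WT libraries alone the 3 myosins passed, with adjusted p of 0.0325 for Myh6, 0.0136 for Myh7 and 0.0120 for Myh7b, where 6.31% of 13709 genes were called lower. They passed too when libraries were weighted by their quality in limma (arrayWeights), with adjusted p of 0.00989 for Myh6, 0.00373 for Myh7 and 0.00621 for Myh7b, where 14.7% of genes were called lower. Without the atrial-rich libraries the values were -0.68 ± 0.18 (adjusted p = 0.0383) for Myh6, -1.09 ± 0.19 (adjusted p = 0.0109) for Myh7 and -1.29 ± 0.20 (adjusted p = 0.0103) for Myh7b, by limma, where 7.4% of 14618 genes were called lower. Without the libraries whose Vcp went against the label, which drops the same WT library, the 3 differences were equal to these, with limma adjusted p of 0.569 for Myh6, 0.563 for Myh7 and 0.563 for Myh7b.

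The fit of 4 groups shares 1 estimate of spread, and VCP TG sham varied most: for the median gene, log2 levels had an SD of 0.58 there, beside 0.19 in VCP TG TAC, 0.21 in WT TAC and 0.31 in WT sham libraries. The median of all genes was itself -0.13 on the log2 scale, TAC over sham. Rescaled to named nuclear protein-coding genes, which brings that median to -0.04, the differences were -0.65 ± 0.19 for Myh6, -1.06 ± 0.24 for Myh7 and -1.51 ± 0.35 for Myh7b. The 5 endothelial markers summed to between 130 and 154 TPM in WT TAC libraries, against 181 to 232 TPM in WT sham libraries, without overlap. Gene IDs with no name in the annotation took 4.18% to 8.76% of TPM in WT TAC libraries, against 11.7% to 15.4% in WT sham libraries, also without overlap. The 4 macrophage markers summed to 63.3 to 180.1 TPM in WT TAC libraries, against 38.4 to 84.3 TPM in WT sham libraries. For the 7 ventricular myocyte markers the sum was 12465 to 16859 TPM in WT TAC libraries, against 15666 to 21610 TPM in WT sham libraries, with overlap. The part of these in the myosin differences was not tested.

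**Figure D2:**
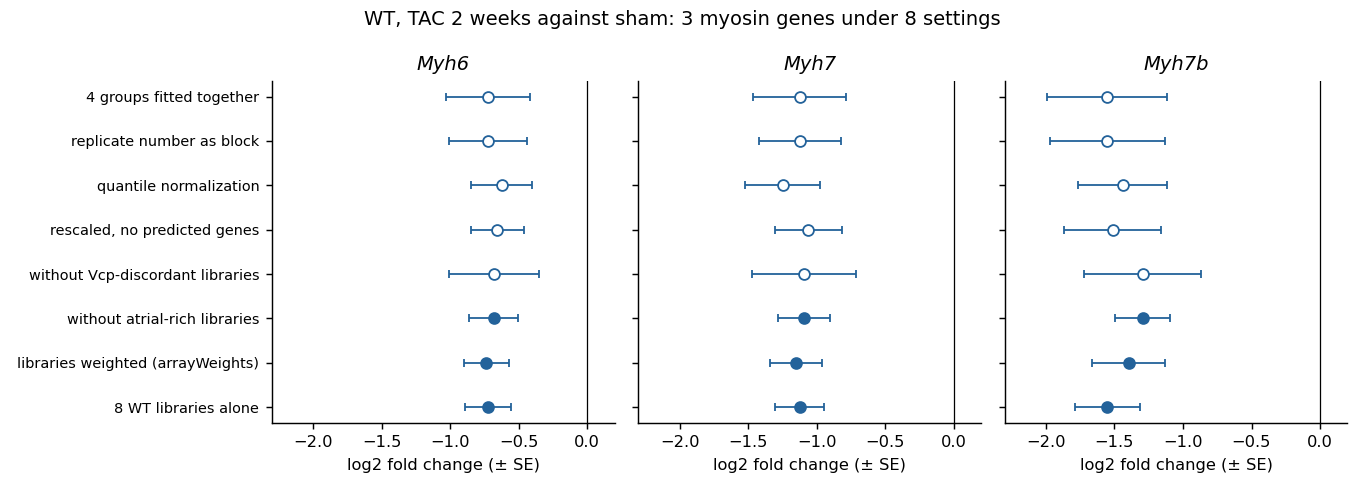
Log2 fold change (± standard error) of Myh6, Myh7 and Myh7b in WT hearts, TAC 2 weeks over sham, under 8 settings; filled circles mark a limma adjusted p under 0.05. The differences lie between -0.62 and -1.56 under these settings, and the 3 genes pass together without the atrial-rich libraries, with weighted libraries and with the 8 WT libraries alone.

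The ratio of Myh7 to Myh6, taken within each library and so free of its scaling, was lower under TAC in WT hearts. It was 5.17, 5.58, 5.14 and 4.52% in WT TAC libraries, against 6.10, 5.98, 8.03 and 7.03% in WT sham libraries. No TAC library reached a sham value, and the difference of mean log2 ratios was -0.41 (two-sided exact permutation test, p = 0.0286, the smallest p that 4 against 4 allows; 0.343 adjusted over the 18 ratio tests). With any 1 library left out it lay between -0.46 and -0.32, and the exact test then cannot go below 0.0571.

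Neither actin passed the test in WT hearts. Acta1 stood at 90.3, 173, 203 and 260.4 TPM in WT TAC libraries, against 173, 364, 294 and 666 TPM in WT sham libraries, a log2 fold change of -0.97 ± 0.57 (limma adjusted p = 0.519). Actc1 stood at 5102, 4803, 5219 and 4545 TPM under TAC, against 3279, 5247, 3271 and 2877 TPM in sham, a log2 fold change of 0.46 ± 0.27 (limma adjusted p = 0.519). Both groups overlapped for each actin, with WT sham replicate 2 above all TAC libraries for Actc1 and the other 3 sham libraries below them. The ratio Acta1/Actc1 was 1.77, 3.60, 3.88 and 5.73% under TAC, against 5.27, 6.94, 8.98 and 23.1% in sham, a difference of -1.44 in log2 (exact permutation test, p = 0.0571; adjusted p = 0.343). The lowest TAC ratio, 1.77%, was that of the atrial-rich library labelled WT 2 weeks TAC replicate 1, and without it the log2 difference was -1.12 (exact permutation test, p = 0.114).

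Tnni1 stayed near 1 TPM in WT hearts, at 1.34, 0.566, 0.814 and 0.723 TPM in WT TAC libraries, against 0.580, 0.703, 0.706 and 0.621 TPM in WT sham libraries, a log2 fold change of 0.15 ± 0.26 (limma adjusted p = 0.840). The highest of these, replicate 1 under TAC, is again the atrial-rich library. Tnni1 passed the filter of 1 TPM in 3 libraries through 3 of 3 VCP TG TAC, 1 of 4 WT TAC, 2 of 4 VCP TG sham and 0 of 4 WT sham libraries.

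In VCP TG hearts the same comparison, TAC against sham, gave smaller fitted differences, and 1 sham library stood apart from the rest. Myh6 stood at 4199.5, 4446 and 5446 TPM in VCP TG TAC libraries, against 6883, 5329, 7791 and 2112 TPM in VCP TG sham libraries. Myh7 stood at 222, 210.0 and 285 TPM under TAC, against 386, 311, 640.1 and 125 TPM in sham. Myh7b stood at 26.4, 20.2 and 36.6 TPM under TAC, against 70.6, 38.9, 80.5 and 11.6 TPM in sham. For each of the 3 genes, sham replicate 4, with 72.9% of its TPM mitochondrial, lay below every TAC library. Every other VCP TG sham library lay above all VCP TG TAC libraries for Myh7 and Myh7b, and for Myh6 all but replicate 2 did. Rescaled to named nuclear protein-coding genes, sham replicate 4 still lay below every TAC library. It stood there at 10476 TPM for Myh6, 620 TPM for Myh7 and 57.5 TPM for Myh7b. The lowest VCP TG TAC values on that scale were 14675, 747 and 71.9 TPM in that order.

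The log2 fold changes were -0.09 ± 0.33 for Myh6, -0.40 ± 0.37 for Myh7, -0.57 ± 0.48 for Myh7b, 0.13 ± 0.61 for Acta1, 0.18 ± 0.30 for Actc1 and 0.19 ± 0.28 for Tnni1. None of the 6 genes passed (limma adjusted p = 1.00 for each), where 0.772% of genes were called and 4.02% did not overlap between the groups. Without sham replicate 4 the myosin values were -0.50 ± 0.20 (adjusted p = 0.200) for Myh6, -0.84 ± 0.25 (adjusted p = 0.114) for Myh7 and -1.14 ± 0.31 (adjusted p = 0.0976) for Myh7b, still short of limma's threshold. The median of all genes was then -0.21.

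The ratio Myh7/Myh6 does not depend on that library's mitochondrial share. It was 5.29, 4.72 and 5.23% in VCP TG TAC libraries, against 5.61, 5.84, 8.22 and 5.92% in VCP TG sham libraries, again without overlap. The log2 difference was -0.32 (exact permutation test, p = 0.0571, the smallest that 3 against 4 allows; adjusted p = 0.343). Sham replicate 3, one of the atrial-rich libraries, held the highest ratio. Without the atrial-rich libraries the difference was -0.12 (exact permutation test, p = 0.333). That is the smallest p that the libraries left allow, so the test could not pass, and the groups still did not overlap. The difference between the genotypes in this response was 0.09 in log2 (exact permutation of genotype labels within operation, p = 0.613; adjusted p = 0.848).

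For the actins of VCP TG hearts, Acta1 stood at 364, 243 and 281 TPM under TAC, against 119, 767, 454 and 121 TPM in sham. Actc1 stood at 4722, 4211 and 4994 TPM under TAC, against 5695, 6021, 3102 and 2608 TPM in sham. For each actin the 3 TAC libraries lay inside the range of the sham libraries. The ratio Acta1/Actc1 was 7.71, 5.78 and 5.62% under TAC, against 2.09, 12.7, 14.6 and 4.63% in sham, a log2 difference of -0.05 (exact permutation test, p = 1). Tnni1 stood at 1.74, 1.29 and 2.10 TPM under TAC, where the atrial-rich library, replicate 2, was the lowest of its group. In sham it stood at 0.947, 0.528, 2.42 and 2.04 TPM, where the 2 atrial-rich sham libraries, replicates 3 and 4, were the highest. The mean level of 1346 odorant and pheromone receptor genes, taken here as a background of little-expressed genes, was also highest in those replicates of VCP TG sham. It was 0.0833, 0.0558, 0.292 and 0.121 TPM in replicate order. The part of either in the Tnni1 values was not tested.

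**Figure D3:**
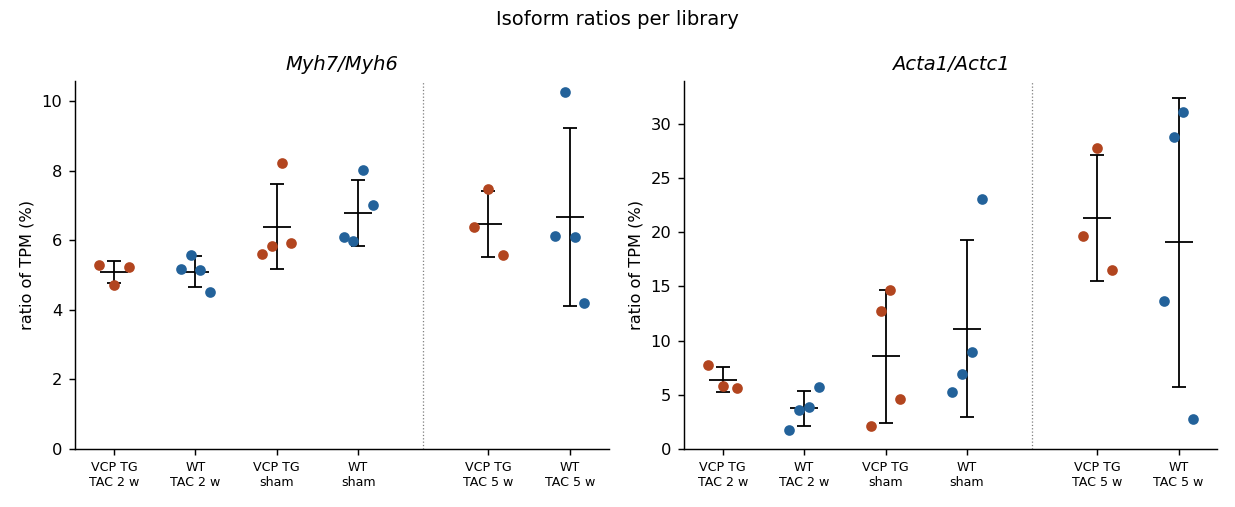
Myh7/Myh6 (left) and Acta1/Actc1 (right) as a percent of TPM in each library (points), with the mean and SD of each group (bars); VCP TG groups are rust-coloured and WT groups blue, and the dotted line divides the 2 tables. Myh7/Myh6 is below the sham libraries in all TAC libraries of 2 weeks in both genotypes, and for Acta1/Actc1 a WT sham library at 23.1% and a WT library of 5 weeks at 2.75% stand apart from their groups.

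Between genotypes in sham hearts none of the 6 genes passed, where limma called 0 of 15540 genes (0.0%; 616 had an unadjusted p under 0.05) and 1.04% of genes did not overlap. The largest fitted difference was that of Myh7b, -1.003 ± 0.44 (adjusted p = 1.00), VCP TG over WT, with 50.4 ± 31.4 TPM in VCP TG and 82.2 ± 7.72 TPM in WT sham libraries (SD, n = 4 each). Without VCP TG sham replicate 4 it was -0.43 ± 0.29 (adjusted p = 0.590). Myh6 differed by -0.29 ± 0.31 and Myh7 by -0.38 ± 0.34, and without that library by 0.12 ± 0.19 for Myh6 and 0.06 ± 0.23 for Myh7, so the sign of both rests on it. Acta1 differed by -0.32 ± 0.57, Actc1 by 0.19 ± 0.27 and Tnni1 by 0.51 ± 0.26 (limma adjusted p = 1 for each). The ratio Myh7/Myh6 differed by -0.09 in log2 (exact permutation test, p = 0.514) and Acta1/Actc1 by -0.52 (p = 0.571 by the same exact test).

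Under 2 weeks of TAC, Myh6 was higher in each VCP TG library than in each WT library, as were 19.0% of genes, and none of the 6 genes passed, where limma called 0.0901% of genes. The log2 fold changes, VCP TG over WT, were 0.35 ± 0.33 (adjusted p = 0.961) for Myh6, 0.34 ± 0.37 (adjusted p = 0.986) for Myh7 and -0.02 ± 0.48 (adjusted p = 1.00) for Myh7b, beside a median of 0.16 for all genes. With TPM rescaled to all nuclear protein-coding genes, predicted ones included, the sign of the first 2 turned, to -0.05 ± 0.25 for Myh6 and -0.05 ± 0.28 for Myh7. Predicted genes took 10.4% to 23.6% of TPM in VCP TG TAC libraries and 3.28% to 5.39% in WT TAC libraries. Rescaled without predicted genes, Myh6 stood at 14675 to 17717 TPM in VCP TG TAC libraries, against 11185 to 13830 TPM in WT TAC. Myh7 stood there at 747 to 927 TPM in VCP TG TAC libraries, against 578 to 772 TPM in WT TAC. In TPM as deposited, without the libraries whose Vcp went against the label, the log2 fold changes were 0.30 ± 0.35 for Myh6 and 0.31 ± 0.40 for Myh7. Their ratio did not separate the genotypes: the mean Myh7/Myh6 was 5.08 ± 0.312% in VCP TG TAC (SD, n = 3) and 5.10 ± 0.438% in WT TAC libraries (SD, n = 4). The log2 difference was -0.0034 (exact permutation test, p = 0.971).

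Acta1 differed by 0.78 ± 0.61 (adjusted p = 0.903) and Actc1 by -0.08 ± 0.30 (adjusted p = 1.00) between the genotypes at 2 weeks of TAC, by limma. The ratio Acta1/Actc1 was 5.62% to 7.71% in VCP TG TAC libraries and 1.77% to 5.73% in WT TAC libraries. All VCP TG values but 1 lay above the WT range, and the log2 difference of 0.87 was not past the threshold (exact permutation test, p = 0.114; adjusted p = 0.343).

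Tnni1 stood at 1.74, 1.29 and 2.10 TPM in VCP TG TAC libraries, against 1.34, 0.566, 0.814 and 0.723 TPM in WT TAC libraries. Its log2 fold change was 0.55 ± 0.28 (adjusted p = 0.566) by limma, and of the settings tried it passed only with weighted libraries, at 0.69 ± 0.16 (adjusted p = 0.00845), where 15.9% of genes were called higher. The mean level of the odorant and pheromone receptor genes was also higher in each VCP TG library: 0.841, 0.311 and 0.450 TPM in VCP TG TAC libraries, against 0.133, 0.107, 0.197 and 0.200 TPM in WT TAC libraries. The part of this background in the Tnni1 values was not tested. The troponin ratio Tnni1/Tnni3 was 0.0378% to 0.0573% in VCP TG TAC and 0.0159% to 0.0418% in WT TAC libraries, a log2 difference of 0.94 (exact permutation test, p = 0.114).

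Tested directly, the response to TAC did not differ between the genotypes past the threshold for any of the 6 genes, where limma called 0.00644% of genes. The VCP TG response minus the WT response was 0.64 ± 0.45 (adjusted p = 0.872) for Myh6, 0.72 ± 0.50 (adjusted p = 0.872) for Myh7 and 0.99 ± 0.65 (adjusted p = 0.872) for Myh7b. Without VCP TG sham replicate 4 these differences were 0.23 ± 0.27 for Myh6, 0.28 ± 0.33 for Myh7 and 0.41 ± 0.41 for Myh7b, beside a median of all genes that moved to -0.01 without it and was 0.22 with it. For Acta1 the difference was 1.10 ± 0.84 (adjusted p = 0.873), for Actc1 -0.28 ± 0.40 (adjusted p = 0.916) and for Tnni1 0.03 ± 0.38 (adjusted p = 0.991).

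**Figure D4:**
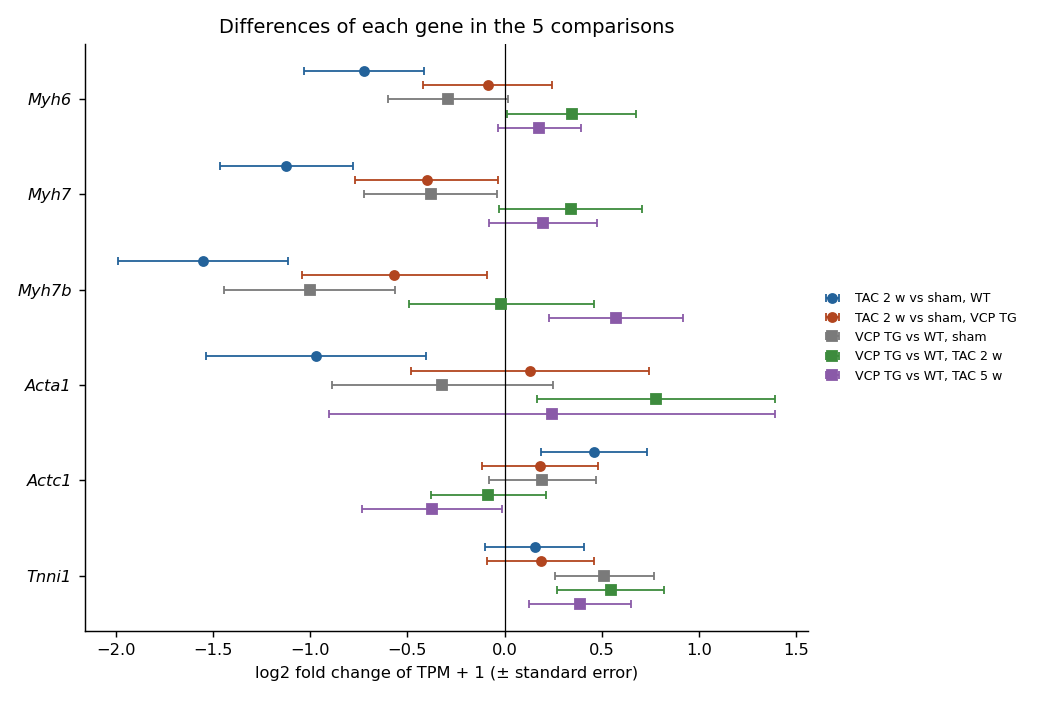
Log2 fold change of TPM + 1 (points, ± standard error) of each gene in 5 comparisons, from the limma fits; circles are TAC over sham and squares VCP TG over WT. Myh7b and Myh7 in WT hearts, TAC over sham, lie farthest below 0, at -1.55 and -1.12, and no point passed the adjusted threshold in these fits.

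At 5 weeks of TAC, where only the genotypes can be compared, none of the 6 genes passed and limma called 0.00715% of 13986 genes. For all 6 genes the groups overlapped, while 5.13% of genes did not overlap. Myh6 stood at 4845, 5132 and 4535 TPM in libraries labelled VCP TG, against 3863, 3852, 4858 and 4597 TPM in those labelled WT. Myh7 stood at 309, 383 and 253 TPM in VCP TG and 236, 396, 296 and 193 TPM in WT. Myh7b stood at 46.2, 54.2 and 86.2 TPM in VCP TG and 49.0, 33.8, 65.8 and 23.3 TPM in WT. In each of the 3 the WT libraries reached both above and below at least 1 VCP TG library. The log2 fold changes, VCP TG over WT, were 0.18 ± 0.21 for Myh6, 0.20 ± 0.28 for Myh7 and 0.57 ± 0.35 for Myh7b (limma adjusted p = 0.913, 0.923 and 0.904 in that order). With 1 library left out, Myh7 lay between 0.037 and 0.38 and Myh7b between 0.32 and 0.81, and neither passed.

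At 5 weeks Acta1 stood at 673, 938 and 364 TPM in libraries labelled VCP TG, against 855, 1452, 910.2 and 62.8 TPM in those labelled WT. WT replicate 4 lay far below the other libraries of its group, and the coefficient of variation of Acta1 was 43.6% in VCP TG and 69.8% in WT. Actc1 stood at 3416, 3377 and 2206 TPM in VCP TG and 6249, 5041, 2923 and 2286 TPM in WT, and Tnni1 at 1.86, 0.686 and 1.65 TPM in VCP TG and 0.382, 1.37, 0.801 and 0.727 TPM in WT. The log2 fold change was 0.24 ± 1.15 for Acta1, -0.37 ± 0.36 for Actc1 and 0.39 ± 0.26 for Tnni1 (limma adjusted p = 0.979, 0.904 and 0.904 in that order). Without the 3 libraries whose Vcp went against the label, Acta1 differed by 1.77 ± 1.36 (adjusted p = 0.874) and Myh7 by 0.69 ± 0.35 (adjusted p = 0.825), by limma on 2 libraries a group. Without WT replicate 4, Acta1 differed by -0.76 ± 0.36.

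The ratio Acta1/Actc1 at 5 weeks was 19.7, 27.8 and 16.5% in VCP TG and 13.7, 28.8, 31.1 and 2.75% in WT libraries, a log2 difference of 0.62 (exact permutation test, p = 0.743). Myh7/Myh6 was 6.38, 7.47 and 5.57% in VCP TG and 6.11, 10.3, 6.10 and 4.21% in WT libraries, a log2 difference of 0.02 (exact permutation test, p = 0.914). Set beside 2 weeks of TAC, where Acta1/Actc1 reached 7.71% at most, 6 of the 7 libraries at 5 weeks lay at 13.7% or more. Sham libraries collected at 2 weeks reached 14.6% in VCP TG and 23.1% in WT hearts, inside the range of the 5-week libraries. The 2 times stand in separate tables with no 5-week sham, so time and table cannot be told apart and the difference was not tested.

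Related genes were described by lists chosen for their roles. Of 9 further ventricular sarcomere genes, all 9 lay below 0 in WT TAC against WT sham, with a median log2 fold change of -0.32 beside -0.13 for all genes, and 5 of them were lower without overlap, as were 13.7% of all genes. In the fit of the 8 WT libraries, which called 6.31% of all genes lower, 2 of the 9 fell past the threshold: Mybpc3, the cardiac myosin-binding protein C, to 225 ± 34.1 TPM in TAC, against 400 ± 62.2 TPM in sham (limma adjusted p = 0.0313), and Tpm1, the alpha-tropomyosin, to 2393 ± 146 TPM in TAC, against 3852 ± 647 TPM in sham (limma adjusted p = 0.0450; SD, n = 4 each). In the fit of all groups 0 of the 9 passed, and Tnnt2, the cardiac troponin T, and Myl2, the ventricular light chain, differed by -0.36 ± 0.23 and -0.24 ± 0.32. With weighted libraries, which called 14.7% of genes lower, 2 of the 9 fell.

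Of the fetal, atrial and skeletal sarcomere isoforms, 12 of 20 were tested and 0 passed in WT TAC against sham in the fit of all groups, where 5 lay below 0 and the median was 0.10 beside -0.13 for all genes. With weighted libraries 1 of the 12 fell, Tpm3, a slow-type tropomyosin, to 25.1 ± 8.73 TPM in TAC, against 39.0 ± 4.06 TPM in sham (SD, n = 4 each; limma adjusted p = 0.0166), where 14.7% of genes were called lower. The atrial light chains Myl7 and Myl4 had the highest means among them, and differed by 2.25 ± 2.61 and 1.89 ± 2.36, with Myl7 at 1546 TPM in the atrial-rich WT TAC library and at 3.34 to 30.3 TPM in the other 3. In VCP TG against WT hearts at 2 weeks of TAC, 0 of 12 passed in the fit of all groups. With weighted libraries 1 of the 12 did, Myh8, the perinatal myosin heavy chain, where 15.9% of all genes were called higher. Myh8 stood at 4.38 ± 1.55 TPM in VCP TG (n = 3) and 2.16 ± 0.628 TPM in WT TAC libraries (SD, n = 4, limma adjusted p = 0.00487). The odorant and pheromone receptor background was also higher in each VCP TG TAC library, and its part in the Myh8 values was not tested.

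Of 8 smooth muscle and non-muscle myosins and actins, 7 lay below 0 in WT TAC against sham, with a median of -0.51 beside -0.13 for all genes, and 0 passed in the fit of all groups. In the fit of the 8 WT libraries, which called 6.31% of all genes lower, 1 of the 8 genes fell: Myh14, a non-muscle myosin heavy chain. It stood at 14.1 ± 1.02 TPM in TAC, against 27.9 ± 4.13 TPM in sham (SD, n = 4 each, limma adjusted p = 0.0140). The abundant non-muscle actins Actb and Actg1 differed by -0.46 ± 0.33 and -0.69 ± 0.41 in the fit of all groups. With weighted libraries, which called 14.7% of genes lower, 4 of the 8 genes fell, Actg1 among them.

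Of 29 regulators of these genes, 25 were tested, and 22 of them lay below 0 in WT TAC against sham, with a median of -0.31 beside -0.13 for all genes, and 8 of them were lower without overlap, as were 13.7% of all genes. None passed in the fit of all groups, and 4 of the 25 fell in the fit of the 8 WT libraries, which called 6.31% of all genes lower, with the largest differences first: Hdac4, a class IIa histone deacetylase, with a log2 fold change of -0.88 ± 0.24 (limma adjusted p = 0.0479), Nkx2-5, a cardiac homeodomain factor, with -0.78 ± 0.20 (0.0413), Thra, the thyroid hormone receptor alpha, with -0.74 ± 0.17 (0.0290), and Smarca4, the chromatin remodeller Brg1, with -0.61 ± 0.14 (0.0318). Thra stood at 11.3 ± 0.930 TPM in WT TAC and 19.8 ± 3.73 TPM in WT sham libraries (SD, n = 4 each). Mef2d and Tead1, the most abundant regulators, differed by -0.37 ± 0.27 and -0.24 ± 0.28 in the fit of all groups. With weighted libraries, which called 14.7% of genes lower, 9 of the 25 fell. In each of the other comparisons of groups 0 genes of any of the 4 lists passed in the unweighted fits of all groups. With weighted libraries, Myh8 was called higher in VCP TG TAC than in VCP TG sham, by 0.87 ± 0.21 (limma adjusted p = 0.0177). Actg1 was called lower there, by -0.99 ± 0.22 (limma adjusted p = 0.0123). The groups overlapped for both genes, and the share of all genes called in that fit is not given here.

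The genes whose levels ran most like Myh7 over the 15 libraries of the 2-week table, among 4655 genes with a mean of at least 10 TPM, were Cdc37 (Pearson correlation of log2 values 0.981), Myo18a (0.975) and Smtn (0.968). Over the 7 libraries of the 5-week table the correlations were 0.449 for Cdc37, 0.561 for Myo18a and 0.0344 for Smtn. For Acta1 they were Ankrd23 (0.778 over 15 libraries and 0.974 over 7), Mapt (0.748 and 0.789) and Eif1ax (0.697 and 0.502). For Tnni1 they were Nudt16 (0.849 and 0.949), Zmat1 (0.823 and 0.948) and Traf5 (0.820 and 0.948). These are descriptions over libraries that share their groups, their mitochondrial shares and their background, and they carry no test.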

How the data were processed

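RNA of 22 left ventricles' libraries came from a miRNeasy extraction (Qiagen) and was sequenced after TruSeq Stranded mRNA preparation (Illumina), per the labels' protocols. The authors deposited TPM in separate tables for 15 libraries of 2 weeks and 7 of 5 weeks. Every library adds up to 1000000, so TPM of one gene falls when others gain, and the sequencing depth is unknown. The submitters' processing notes list Trimmomatic 0.35, kallisto 0.43.1, STAR 2.5.4b, DESeq2 and GRCm38, without saying what each did. In GENCODE M21, 30074 of 30735 gene IDs had a name. The highest correlation between libraries was 0.983, and none were merged.

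Members were tested with limma 3.58.1 (R 4.3.3) on log2(TPM + 1), a scale that understates changes of low genes, with variance trend and robust moderation. Tests were two-sided, over genes reaching 1 TPM in 3 libraries, adjusted by Benjamini-Hochberg over every gene in the fit, with 0.05 as the threshold. One fit held the 4 groups of the 2-week table, the other the 2 groups of the 5-week table. Mean log2 ratios were compared by exact permutation over libraries (Python 3.11.15, numpy 2.4.6, scipy 1.17.1), adjusted over 18 tests. Both procedures were also run on simulated data with the same spread in every group, unlike the groups here, and the outcome is not given here. Fold changes carry standard errors and TPM values SD. Promoter and microRNA sequences are from RefSeq tables of GRCm38.p6.

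Members, lists and tests were chosen with earlier results of these data known. Besides the 6 genes, the text names Vcp, Tnni3, up to 4 genes of a list past the threshold with the largest change or else its 2 most abundant, and the 3 genes most like Myh7, Acta1 and Tnni1. The split by Vcp on a scale without predicted genes (Gm and a number) was chosen after seeing the data.

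What shared replicate numbers mean is not stated. Libraries of the same number deviated together in all 4 pairs of the sham comparison (correlations 0.107 to 0.260), a hint from the data and not from a label. The sham results in the text are unpaired, and the paired fit was an alternative. Alternatives were the pseudocount, the filter, rescaling, quantile normalization, library weights, the replicate block, and leaving out libraries.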

Additional observations from a re-analysis of the deposited data

Results flagged for a closer look

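In groups of 4 libraries, a library was looked for whose distance to the nearest other exceeds what the range of the group allows (Dixon's test), for the 6 genes in TPM and the 3 ratios in log2. Of 36 such groups, 3 held one; chance flags about 1 in 20. Myh7 stood at 232 TPM in WT 2 weeks TAC replicate 2, against 173 to 174 TPM in the other 3 libraries. Actc1 stood at 5247 TPM in WT sham replicate 2, against 2877 to 3279 TPM in the others. The log2 ratio of Myh7 to Myh6 was -3.61 in VCP TG sham replicate 3, an atrial-rich library, against -4.16 to -4.08 in the others.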

How the results depend on the processing

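In WT hearts, TAC against sham, 3 of the 6 genes passed with library weights, without atrial-rich libraries and with the 8 WT libraries alone, where 14.7%, 7.4% and 6.31% of all genes were called lower in that order, against 0 in the fit of all groups. Between genotypes at 2 weeks of TAC 1 passed with library weights, where 15.9% of genes were called higher. The number of isoform ratios past the unadjusted threshold in WT hearts was 0 with medians, with the replicate block, without atrial-rich libraries, without libraries whose Vcp went against the label and with any 1 library left out. Myh7/Myh6 was there -0.34 with medians (exact permutation p = 0.0571), -0.41 with the replicate block (exact p = 0.125, its smallest) and -0.41 without either set of libraries (exact p = 0.0571, the smallest for 3 against 4), and -0.46 to -0.32 with 1 library left out. The replicate block changed no call of the 6 genes in any comparison, the sham comparison included. In the comparisons other than sham, same-numbered libraries did not all deviate together.

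Signs turned only for values that had not passed, which was nearly every value. None of the 36 member differences had passed in the unweighted fits of all groups. Of the 18 ratio differences only Myh7/Myh6 in WT hearts had, and only before adjustment. In VCP TG hearts, TAC against sham, Myh6 was 0.0081 rescaled without predicted genes (an alternative added after seeing the data) and 0.071 without libraries with Vcp against the label. Acta1 was -0.19 rescaled and -0.25 without those libraries. Actc1 was -0.14 rescaled, -0.069 with quantile normalization, -0.20 with library weights and -0.27 without atrial-rich libraries, Tnni1 was -0.071 with quantile normalization, and Acta1/Actc1 was 0.35 without atrial-rich libraries. In sham hearts between genotypes, Acta1 was 0.0040 with weights and 0.063 without libraries with Vcp against the label, Acta1/Actc1 was 0.028 without them, and Tnni1/Tnni3 was -0.092 without atrial-rich libraries. At 2 weeks of TAC between genotypes, Myh6 and Myh7 were -0.051 and -0.054 when rescaled with predicted genes included. Actc1 was there 0.0025 without atrial-rich libraries, and Myh7/Myh6 was 0.021 with medians, 0.056 without atrial-rich libraries and 0.0045 without libraries with Vcp against the label. At 5 weeks, Acta1 was -0.032 with weights and -0.76 with the replicate block, Myh7/Myh6 was -0.18 with the block, and Acta1/Actc1 was -0.011 with medians and -0.15 with the block. The block drops the unpaired WT library there. For the difference in response, Tnni1 was -0.23 rescaled and -0.18 with quantile normalization, Myh7/Myh6 was -0.020 with the block, and Tnni1/Tnni3 was -0.015 as a ratio of TPM + 1. The cause was not tested.

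With 1 library left out, ranges that crossed 0 in VCP TG hearts, TAC against sham, were -0.50 to 0.13 for Myh6, -0.25 to 0.64 for Acta1, -0.033 to 0.37 for Actc1, -0.022 to 0.37 for Tnni1 and -0.60 to 0.34 for Acta1/Actc1. In sham hearts they were -0.51 to 0.12 for Myh6, -0.72 to 0.058 for Myh7, -0.83 to 0.063 for Acta1 and -0.91 to 0.028 for Acta1/Actc1. Between genotypes under TAC they were -0.27 to 0.18 for Myh7b and -0.061 to 0.048 for Myh7/Myh6 at 2 weeks, and -0.76 to 0.74 for Acta1, -0.18 to 0.25 for Myh7/Myh6 and -0.15 to 1.02 for Acta1/Actc1 at 5 weeks. For the difference in response they were -0.18 to 0.21 for Tnni1 and -0.37 to 0.39 for Tnni1/Tnni3. Tnni1, near the filter of 1 TPM, was not tested in 3 of the 7 such fits at 5 weeks. With unknown depth, no counting error can be given.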

Other observations

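The ratio of Myh7b to Myh7, singled out after its values were seen and not tested, was 11.9, 9.62 and 12.8% in VCP TG TAC libraries of 2 weeks and 8.90, 15.2, 18.2 and 18.3% in WT TAC libraries. It was 18.3, 12.5, 12.6 and 9.28% in VCP TG sham libraries and 18.4, 20.4, 19.0 and 22.7% in WT sham libraries. Each WT sham library lay above each VCP TG sham library, but narrowly, the nearest values being 18.38% and 18.28%. The latter is that of VCP TG sham replicate 1, whose Vcp went against the label. At 5 weeks of TAC it was 14.9, 14.1 and 34.1% in libraries labelled VCP TG and 20.7, 8.55, 22.2 and 12.1% in those labelled WT, and the groups overlapped.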
